A study of Homo sapiens with 12 samples.

Results

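The response to doxycycline of a Caco-2 line, labelled as an inducible knockdown of LRH-1 by a short hairpin RNA (shRNA), was measured on 6 of the study's 12 arrays, chosen by their titles: 3 arrays of the line after doxycycline and 3 of the same line without it. Caco-2 is an established human colorectal cancer cell line that takes on features of absorptive intestinal cells when confluent. Each array measured total RNA of whole cultures on an Illumina bead array. The cells with doxycycline had received 5 µg/ml before they were confluent and were harvested 96 hours later. The untreated arrays were of the same line, with the same inducible pTripZ vector and no doxycycline. The study text speaks of more than 1 hairpin sequence, aimed at the ligand-binding domain, and the labels do not say which one these arrays carried, nor whether the line was 1 clone. The other 6 arrays were of a line titled Native, 3 with the same doxycycline treatment and 3 without. Another label calls that line a non-silencing vector control, and which name is right was not given. Doxycycline, the agent that switches the hairpin on, was thus the only labelled difference within either line. The labels do not say that replicates were separate cultures, so the p-values below reflect only how far these samples spread, and that spread may be technical.

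LRH-1, encoded by NR5A2, is a nuclear receptor that binds DNA as a monomer and controls genes of bile acid and lipid handling, of the liver's secreted proteins and of renewal in the intestinal crypt. In the intestine it is found mainly in crypt cells. Doxycycline itself is a tetracycline antibiotic that also binds the mitochondrial ribosome and chelates metal ions, so genes can respond to it in cells without a hairpin. In bulk cultures, fewer cells of a type and less RNA per cell cannot be told apart.

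The median raw intensity of the 6 arrays ran from 267 to 359, and 42.6% to 44.5% of probes were detected at a detection p under 0.05. Within a group, arrays correlated between 0.987 and 0.993. Values below are background-corrected, quantile-normalised log2 intensities, 1 probe per gene, and a value of one probe is not set against that of another. All 9 intestinal epithelial markers were detected on all 6 arrays, with summed linear signals of 134125 to 137764 with doxycycline, against 127479 to 133531 without. Of 5 leukocyte markers, PTPRC was detected on no array and CD3E on 1 (doxycycline replicate 2), and the sum was 2830 to 3033 with doxycycline, against 3643 to 4008 without. Of 4 fibroblast markers, COL1A2 was detected on no array, and the sum was 3121 to 3799 with doxycycline, against 2197 to 2313 without. PDGFRB rose by 0.93 (adjusted p = 0.00275), and COL1A1 read 8.94, 8.03 and 8.55 with doxycycline, against 9.14, 9.08 and 9.07 without (adjusted p = 0.0996). Of 3 endothelial markers, CDH5 and VWF were detected on no array, and the sum was 447 to 570 with doxycycline, against 586 to 665 without.

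One array stood apart in size of response. Doxycycline replicate 2 was the array farthest from the untreated mean in 948 of the 1445 genes that passed the threshold (65.6%), against 308 (21.3%) for replicate 1 and 189 (13.1%) for replicate 3. Among the untreated arrays the shares were 28.7%, 36.5% and 34.9%. Results that depend on that array are given with and without it, and its part in the others was not tested beyond leaving it out.

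The targeted gene was not lower with doxycycline. The NR5A2 probe with the brightest signal read 10.59, 10.59 and 10.84 with doxycycline, against 10.13, 10.13 and 10.24 without, on the log2 scale. All 3 doxycycline arrays lay above all 3 untreated arrays. The difference was 0.50 (SE 0.10, n = 3 each, adjusted p = 0.00995 in limma over all genes). An exact two-sided permutation test on the same 6 values gave p = 0.1, which is the smallest p that 3 against 3 allows. A second detected probe read 10.27, 10.16 and 10.08 with doxycycline, against 9.53, 9.80 and 9.67 without, again with no overlap. A further NR5A2 probe was not detected on any of the 12 arrays. The array reports mRNA, and LRH-1 protein was not analysed here. Since the level of NR5A2 mRNA goes against the label, the line is called the shRNA-labelled line throughout, and every direction below is that of doxycycline treatment in that line.

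Doxycycline changed 1445 of 12566 genes tested in the shRNA-labelled line at an adjusted p under 0.05 (11.5%). Of these, 815 were higher (6.49%) and 630 lower (5.01%) with doxycycline. Counts within the gene lists below are to be read beside these 2 shares. The lists were chosen with earlier results of these data known. The median size of a called rise was 0.71 and of a called fall -0.62 on the log2 scale, while the median over all genes was -0.02. At least a 2-fold change was seen for 227 of the genes that rose and 88 of those that fell. Among the genes that rose, 50 had no detected signal on any untreated array, and among those that fell, 40 had none on any doxycycline array. Arrays of both groups did not overlap for 3831 genes (30.5%). The counts depended on single arrays: without doxycycline replicate 2, 511 genes rose and 283 fell, and without untreated replicate 3, 524 rose and 267 fell. Without doxycycline replicate 1, 337 fell, and without untreated replicate 2, 404 fell.

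**Figure D1:**
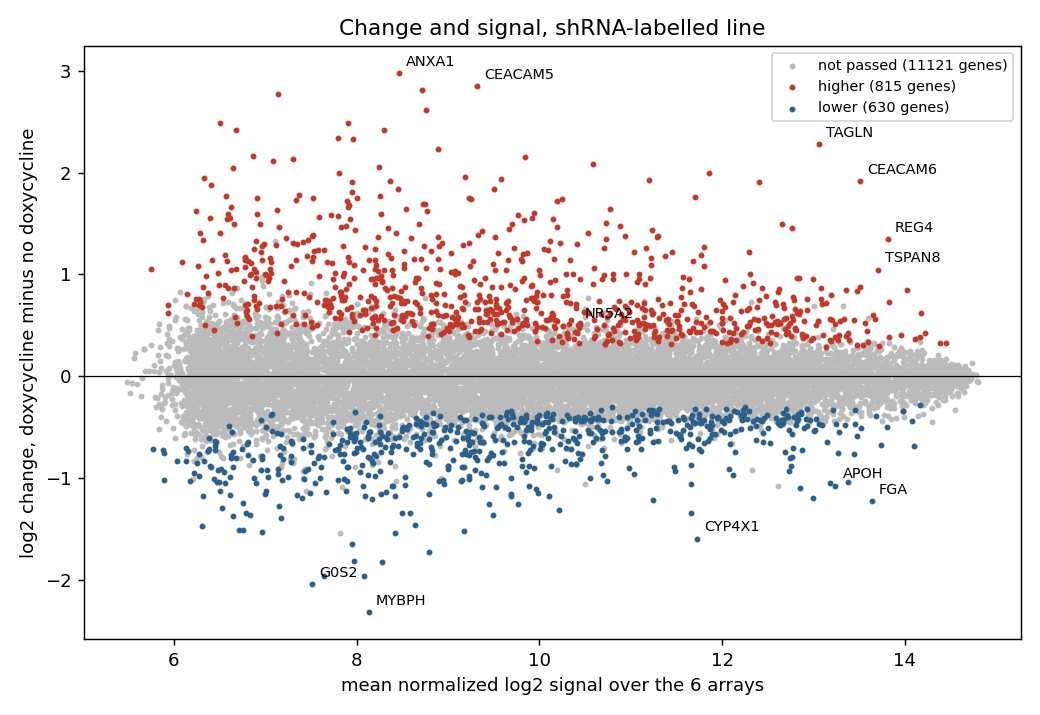
Mean log2 intensity over the 6 arrays of the shRNA-labelled line (horizontal) against the log2 change, doxycycline minus no doxycycline (vertical), 1 point per gene tested, with genes past an adjusted p of 0.05 in colour. The 815 genes that rose reach further from 0 than the 630 that fell, and ANXA1 is the highest of the labelled genes at 2.98.

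ANXA1, a calcium-dependent phospholipid-binding protein, showed the largest rise among genes whose arrays did not overlap. Its log2 intensity was 9.73, 10.83 and 9.29 with doxycycline, against 7.20, 6.81 and 6.90 without. Every doxycycline array was above every untreated array, and doxycycline replicate 2 was the highest. The change was 2.98 (SE 0.33, adjusted p = 0.000234), a 7.88-fold rise, and leaving out single arrays gave 2.54 to 3.31.

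The carcinoembryonic antigen family, cell-surface glycoproteins of colon epithelium that bind each other and bacteria, had the highest median change of the gene lists. Of 11 members on the array 4 passed the detection filter, 3 of these rose and CEACAM21 did not pass (-0.24, adjusted p = 0.532). The median change of the 4 was 1.68. CEACAM5, which carries the antigen measured in blood as CEA, read 10.49, 11.16 and 10.55 with doxycycline, against 8.06, 7.44 and 8.17 without. The lowest doxycycline array was more than 2 log2 units above the highest untreated one, and the change was 2.84 (SE 0.25, adjusted p = 7.05e-05). CEACAM6, a family member anchored to the membrane by a lipid, was in the brightest decile by its mean over the 6 arrays. It read 14.44, 14.52 and 14.44 with doxycycline, against 12.87, 12.12 and 12.66 without. Its doxycycline arrays lay within 0.1 of each other while the untreated ones spread more widely, with replicate 2 the lowest. The rise was 1.92 (SE 0.16, adjusted p = 6.25e-05). CEACAM1, the family member with an inhibitory cytoplasmic tail, rose by 1.45 (adjusted p = 5.76e-05). These 3 calls held without each array in turn.

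TSPAN8, a tetraspanin that organises membrane complexes with integrins, read 14.22, 14.30 and 14.15 with doxycycline, against 13.20, 13.14 and 13.19 without. Both groups were tight, and the groups were about 1 unit apart. It rose by 1.05 (SE 0.10, adjusted p = 0.000108). REG4, a secreted lectin of enteroendocrine and goblet cells, rose by 1.35, and MYADM, a membrane protein first found in myeloid cells, by 0.88. KLF6, a zinc-finger transcription factor, rose by 0.85. Among the 1257 genes in the brightest decile of mean signal over the 6 arrays, 45 rose and 24 fell. Both are smaller shares than the 6.49% and 5.01% of all genes tested.

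**Figure D2:**
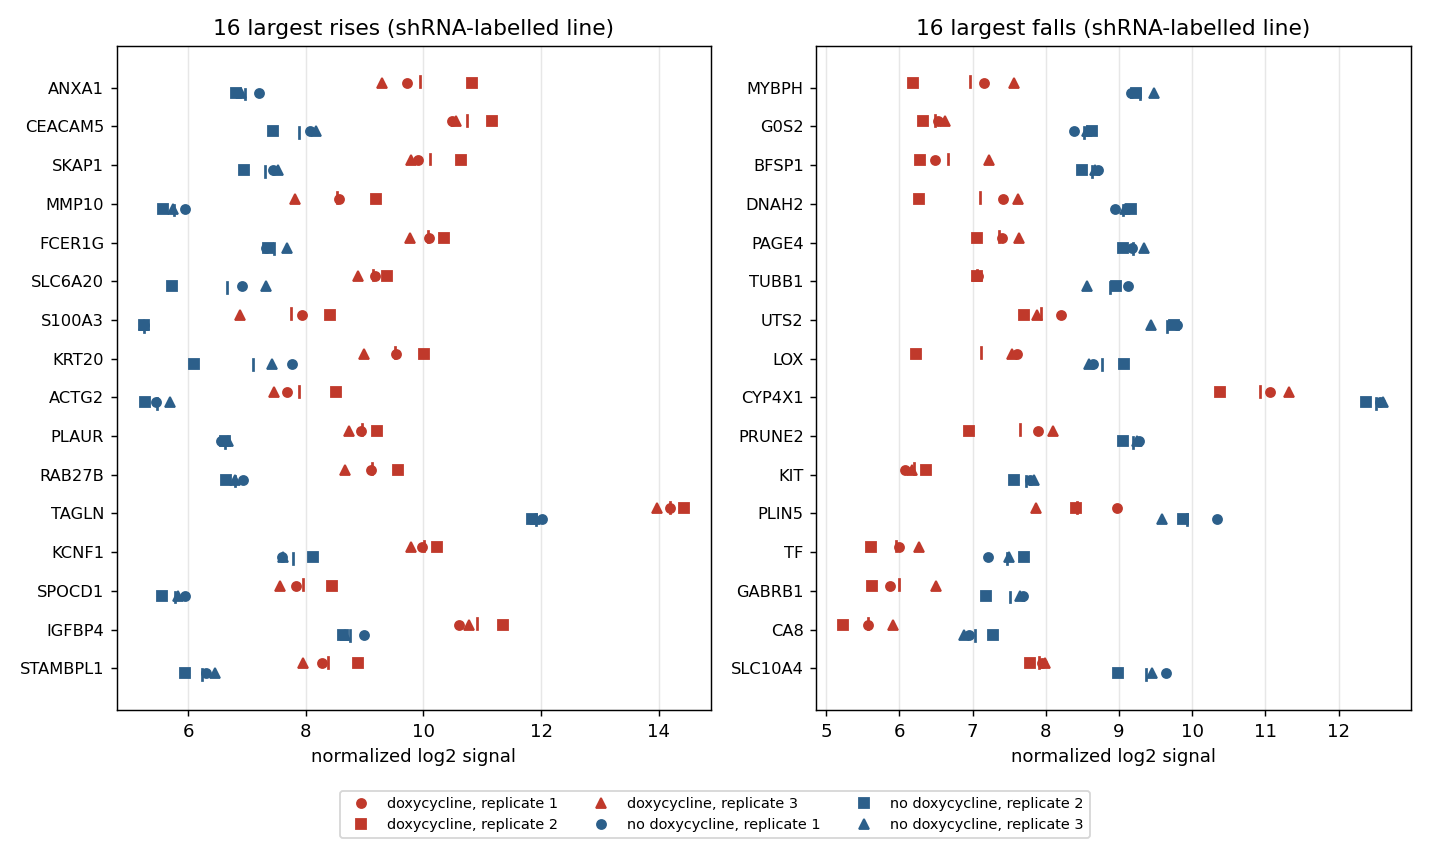
Log2 intensity on each of the 6 arrays for the 16 genes with the largest rises and the 16 with the largest falls among genes whose arrays did not overlap, with doxycycline arrays drawn beside untreated ones and replicates marked by symbol. In most of these genes doxycycline replicate 2 lies farthest from the untreated arrays, as for ANXA1 at 10.83 and DNAH2 at 6.27.

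The letters before the start sites of the leading genes were read from RefSeq (GRCh38.p14), in a window of 250 bases before to 50 after the start. Of the 16 genes with the largest rises 14 had such a sequence. Of these, 3 held the AP-1 motif TGANTCA, searched on both strands, and 1 held the LRH-1 motif CAAGGNCA, searched on both strands. The 250 bases before the start of these 4 genes are shown because they are the leading rises with either motif, with the match in capitals. Of the 15 promoter sequences found for the 16 largest falls, 1 held the AP-1 motif (BFSP1) and 1 the LRH-1 motif (CYP4X1). MMP10 lies on the minus strand at chr11:102780629-102780878, S100A3 on the minus strand at chr1:153549259-153549508, PLAUR on the minus strand at chr19:43670170-43670419 and CEACAM5 on the plus strand at chr19:41708376-41708625.
MMP10: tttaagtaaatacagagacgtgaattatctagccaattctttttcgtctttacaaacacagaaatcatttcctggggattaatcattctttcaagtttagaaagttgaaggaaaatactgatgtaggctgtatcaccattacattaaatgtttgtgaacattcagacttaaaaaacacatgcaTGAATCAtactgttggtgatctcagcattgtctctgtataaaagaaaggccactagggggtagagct
S100A3: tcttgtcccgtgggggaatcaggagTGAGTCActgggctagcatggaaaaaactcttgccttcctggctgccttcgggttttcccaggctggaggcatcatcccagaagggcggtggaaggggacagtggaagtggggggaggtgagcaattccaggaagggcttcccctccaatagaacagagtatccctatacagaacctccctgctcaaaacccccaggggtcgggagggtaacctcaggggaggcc
PLAUR: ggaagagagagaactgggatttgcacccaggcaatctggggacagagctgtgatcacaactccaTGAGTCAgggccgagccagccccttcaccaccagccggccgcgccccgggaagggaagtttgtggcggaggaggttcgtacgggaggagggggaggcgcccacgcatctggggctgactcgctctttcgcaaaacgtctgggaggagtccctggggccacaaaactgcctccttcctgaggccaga
CEACAM5: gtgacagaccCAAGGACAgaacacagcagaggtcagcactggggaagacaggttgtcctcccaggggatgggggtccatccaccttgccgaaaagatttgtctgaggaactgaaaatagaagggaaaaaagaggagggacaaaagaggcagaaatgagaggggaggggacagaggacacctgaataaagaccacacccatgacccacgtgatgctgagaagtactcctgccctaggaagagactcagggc
The first letter of the match lay at -67 in MMP10, -225 in S100A3, -186 in PLAUR and -240 in CEACAM5, counted from the start site. The AP-1 motif was present in 51 of 643 promoters of genes that rose (7.93%), in 28 of 496 of genes that fell (5.65%), in 4.70% of the 10007 promoters of genes tested and in 7.76% of all 27305 promoters. The LRH-1 motif was present in 20 of 643 promoters of genes that rose (3.11%) and 17 of 496 of genes that fell (3.43%), against 3.71% of the genes tested. The AP-1 motif reads the same on both strands. A match describes these letters only.

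Genes of matrix breakdown rose more often than they fell. Of 38 genes of matrix proteases, plasminogen activation and their inhibitors on the array 21 passed the detection filter. Of these, 9 rose and 1 fell, with a median change of 0.55, and 8 or 9 rose without each array of the line in turn. MMP10, a stromelysin that cleaves collagens and proteoglycans, read 8.57, 9.20 and 7.81 with doxycycline, against 5.95, 5.57 and 5.75 without. No untreated array had a detected signal and all 3 doxycycline arrays did, so the rise was at least 4.28-fold (adjusted p = 0.000407). Such lower bounds set the doxycycline mean against the lowest signal that counted as detected. PLAUR, the cell-surface receptor of urokinase, read 8.94, 9.21 and 8.74 with doxycycline, against 6.57, 6.62 and 6.68 without. The groups were more than 2 units apart, with a change of 2.34 (SE 0.22, adjusted p = 0.000108).

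MMP1, the interstitial collagenase, read 11.71, 12.34 and 10.84 with doxycycline, against 9.82, 9.28 and 9.52 without. The untreated arrays were close together and doxycycline replicate 2 was again the highest. The change was 2.09 (SE 0.31, adjusted p = 0.00147). SERPINE2, a secreted inhibitor of thrombin and urokinase, rose by 1.22 (adjusted p = 0.00139). The other members called higher, here named after their values were seen, were PLAU (urokinase itself, 1.34), the protease inhibitors TIMP1 (1.01) and TIMP2 (0.60), the membrane-bound MMP15 (0.55) and MMP7, matrilysin, which was not detected on untreated arrays and rose at least 1.84-fold. Proteases and their inhibitors were thus both among the genes that rose. MMP11, stromelysin-3, was the one that fell (-0.88).

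More of the calcium-binding S100 proteins rose than fell. Of 20 on the array 13 were tested, 7 rose (53.8%) and 1 fell (7.69%), and the median was 0.56. Over all genes tested these shares were 6.49% and 5.01%. Without single arrays of the line 5 or 6 rose. S100A3 read 7.94, 8.41 and 6.88 with doxycycline, against 5.26, 5.25 and 5.26 without. It had no detected signal on untreated arrays and rose at least 2.49-fold (adjusted p = 0.00073), with doxycycline replicate 3 the lowest of the treated arrays. No untreated array of the Native line detected S100A3 either. It thus passed the detection filter through doxycycline arrays only, and could be called only as a rise. S100P, among the brightest decile of probes, read 13.49, 13.69 and 13.35 with doxycycline, against 12.68, 12.52 and 12.74 without. It rose by 0.87 (SE 0.11, adjusted p = 0.000539) with no overlap between groups. S100A6 rose by 0.84 and S100A11, a partner of annexins, by 0.87. S100A1, named after its value was seen, fell by 0.69, a call lost without doxycycline replicate 1. Of 10 annexins tested, ANXA1 was the 1 that rose. ANXA9 fell by 1.10 (adjusted p = 0.0186), a call lost without doxycycline replicate 1 or untreated replicate 2 or 3. Without doxycycline replicate 3, and likewise without untreated replicate 1, 3 annexins rose.

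Integrins are paired receptors for matrix proteins, and laminins and collagens are among their ligands. Of 45 tested of 77 on the array 6 rose and 3 fell, with a median of 0.02, and the 6 that rose were integrin subunits. ITGA2, a collagen-binding subunit, read 12.52, 12.87 and 12.36 with doxycycline, against 10.97, 10.82 and 10.69 without. The groups did not overlap and the change was 1.76 (SE 0.14, adjusted p = 5.86e-05). ITGB4 and ITGA6, which pair as the laminin receptor of hemidesmosomes, rose by 1.59 (adjusted p = 0.000137) and 1.45 (adjusted p = 0.00741). ITGA3, another laminin-binding subunit, rose by 1.00. The members that fell, named after their values were seen, were LAMA1 (-0.74), COL12A1 (-1.03) and COL2A1, which was not detected with doxycycline and fell at least 1.99-fold. The number that fell dropped to 0 without doxycycline replicate 2 or untreated replicate 3, and to 1 without untreated replicate 1, while 5 or 6 members rose in each of these settings.

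Contractile and actin-binding genes also rose more often than they fell. The list held targets of YAP and of serum response factor, which read tension and actin assembly in the cell, with smooth-muscle genes. Of 33 tested of 37 on the array 10 rose and 1 fell, the median was 0.17, and 8 to 10 rose without each array of the line. The shares were 30.3% higher and 3.03% lower, against 6.49% and 5.01% of all genes tested. TAGLN, the actin-bundling protein transgelin, read 14.19, 14.43 and 13.97 with doxycycline, against 12.01, 11.84 and 11.90 without. Both groups were tight and far apart, with a change of 2.28 (SE 0.23, adjusted p = 0.00014). ACTG2, smooth-muscle gamma actin, read 7.68, 8.52 and 7.46 with doxycycline, against 5.45, 5.27 and 5.69 without. It was detected on all 3 doxycycline arrays and on no untreated array, and rose at least 2.75-fold (adjusted p = 0.000461). No untreated array of the Native line detected ACTG2 either. It thus passed the detection filter through doxycycline arrays only, and could be called only as a rise. TGFB1I1, a focal-adhesion adaptor, rose by 1.75 and TPM2, a tropomyosin, by 1.09. CCN2, a secreted matricellular protein and a well-known YAP target, was the member that fell (-0.55, named after its value was seen).

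Feedback genes of ERK signalling and AP-1 subunits were mostly higher where they passed. ERK is the kinase downstream of EGF receptors, and its targets include phosphatases and Sprouty-type proteins that restrain it as well as AP-1 transcription factors. Of 32 tested of 36 on the array 12 rose and 1 fell, the median was 0.31, and 8 to 11 rose without each array of the line. DUSP5, a nuclear phosphatase of ERK, read 12.68, 13.16 and 12.73 with doxycycline, against 11.08, 10.62 and 10.89 without. The groups were well separated and the change was 2.00 (SE 0.15, adjusted p = 5.76e-05). PHLDA2 rose by 1.16 and IER3, an early-response gene, by 0.96. The AP-1 subunit JUN read 12.36, 12.47 and 11.93 with doxycycline, against 11.08, 11.17 and 11.11 without. Its rise was 1.14 (SE 0.15, adjusted p = 0.000856), with no overlap. HBEGF, an EGF receptor ligand named after its value was seen, fell by 0.43, and that call was lost without doxycycline replicate 1 or 2 or untreated replicate 2 or 3. Without Native doxycycline replicate 2, 2 members fell.

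**Figure D3:**
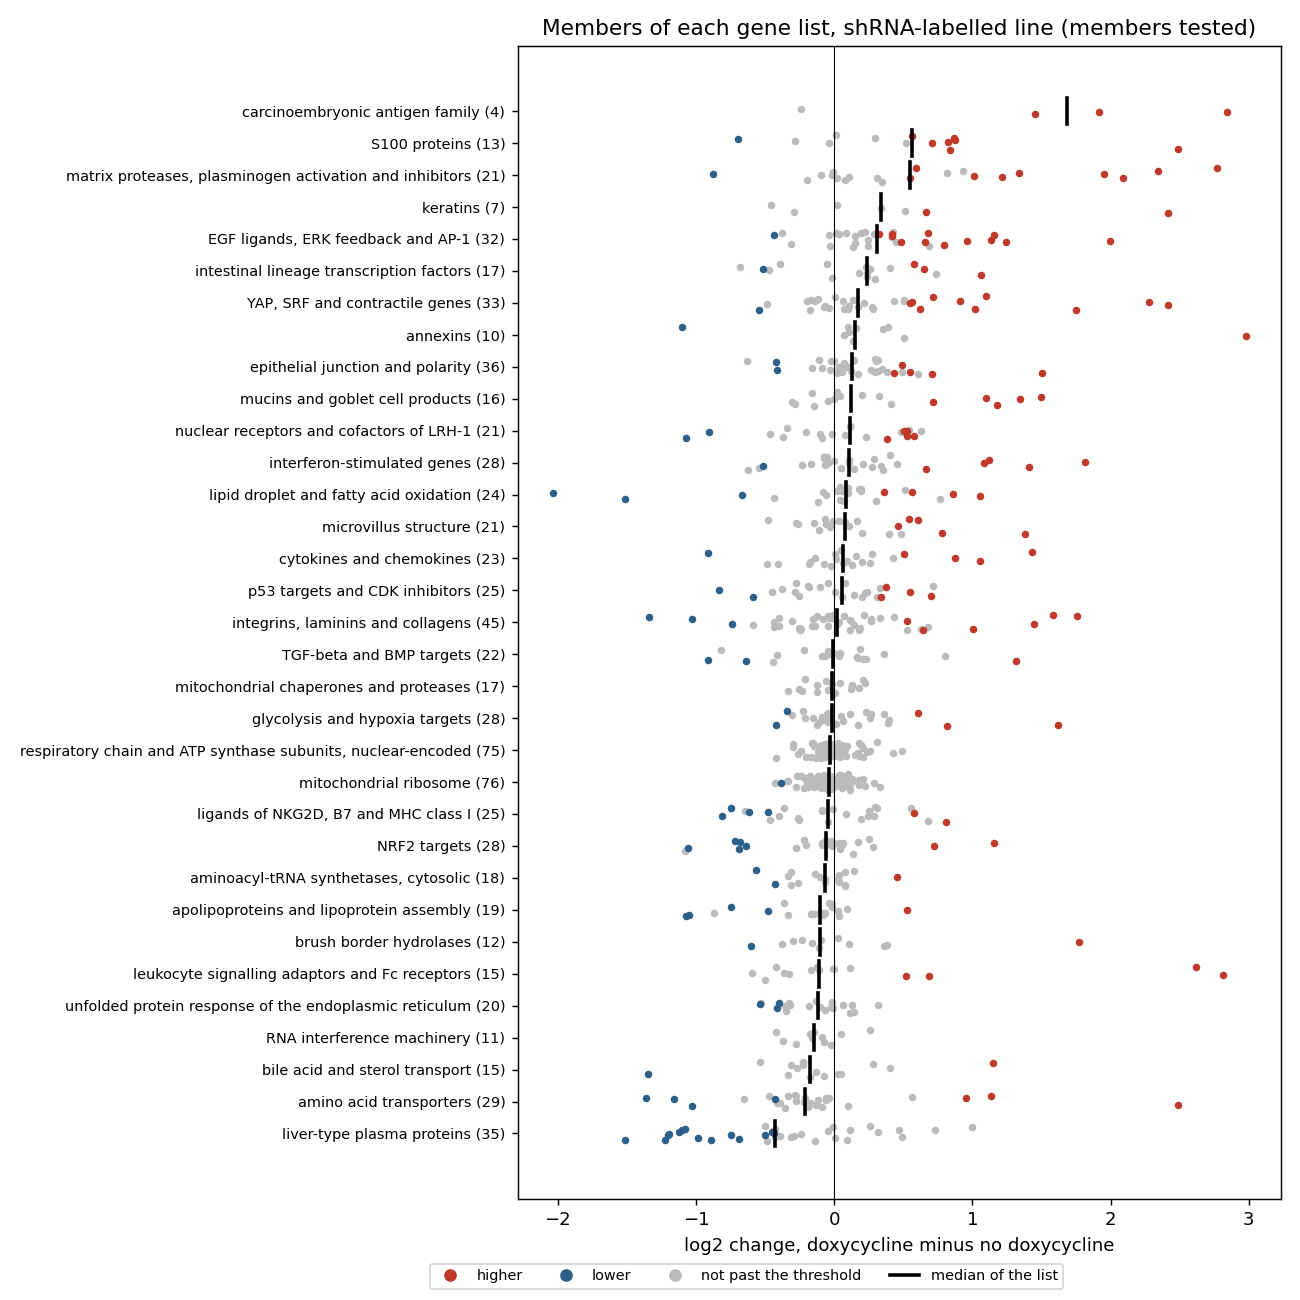
Log2 change with doxycycline in the shRNA-labelled line (horizontal) of each tested member of 33 gene lists, ordered by the list's median (black bar), with members past an adjusted p of 0.05 in colour and the number tested in brackets. The carcinoembryonic antigen family has the highest median, 1.68, and the liver-type plasma proteins the lowest, -0.43.

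Genes that mark intestinal cell types changed in part. Of 16 mucins and goblet cell products tested, of 24 on the array, 5 rose and the other 11 did not pass, with the same number without each array of the line, and the median was 0.12. TFF1, a trefoil peptide secreted with mucus, read 13.24, 13.52 and 13.44 with doxycycline, against 11.70, 12.09 and 11.91 without. It rose by 1.498 (SE 0.13, adjusted p = 6.25e-05) without overlap. REG4 read 14.44, 14.45 and 14.57 with doxycycline, against 13.09, 13.40 and 12.92 without. The membrane mucins MUC13 and MUC1 rose by 1.10 (adjusted p = 0.000745) and 1.18 (adjusted p = 0.00106), the last on the brightest probe, against 0.38 on the other (adjusted p = 0.191).

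KRT20, the keratin of mature surface enterocytes, read 9.53, 10.01 and 8.99 with doxycycline, against 7.77, 6.10 and 7.42 without. The groups did not overlap, but untreated replicate 2 was far below the other untreated arrays and had no detected signal. The change was 2.42 (SE 0.37, adjusted p = 0.00182). KRT15 was the other keratin of 7 tested that rose (0.66), and its call was lost without doxycycline replicate 2. Of 21 genes of microvillus structure tested 5 rose, with 4 to 6 without each array of the line. MYO1A, the myosin that ties the brush border's actin core to its membrane, rose by 0.78 (adjusted p = 0.000974). CLIC5, found at the base of microvilli, rose by 1.38, and the actin-bending proteins BAIAP2L2 and BAIAP2L1 by 0.54 and 0.46. Of 12 brush border hydrolases tested, the placental-type alkaline phosphatase ALPG rose by 1.77 (lost without doxycycline replicate 2) and the intestinal one, ALPI, fell by 0.60 (adjusted p = 0.00939). The other 10 hydrolases did not pass. The shares of that list were 8.33% higher and 8.33% lower, against 6.49% and 5.01% of all genes tested.

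Of 36 junction and polarity genes tested 5 rose (13.9%) and 2 fell (5.56%), against 6.49% and 5.01% of all genes tested. CLDN2, a claudin that forms a cation pore in leaky tight junctions, read 11.42, 11.71 and 11.29 with doxycycline, against 10.10, 10.06 and 9.76 without. All doxycycline arrays were higher, and the rise was 2.83-fold (log2 SE 0.18, adjusted p = 0.000461). TJP1, the scaffold ZO-1, rose by 0.49 and DSG2, a desmosomal cadherin, by 0.71. PKP4 fell by 0.42, which was lost without doxycycline replicate 1 or 2 or untreated replicate 2 or 3. Without doxycycline replicate 2, or untreated replicate 1 or 2, 3 junction genes rose. The number lower was 0 without doxycycline replicate 1 or 2 or untreated replicate 2 or 3, and 1 without untreated replicate 1.

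Among 17 intestinal lineage transcription factors tested, KLF4, which marks cells leaving the cycle, rose by 1.06 (adjusted p = 0.00159). ELF3, an epithelial ETS factor, rose by 0.65, and ASCL2, which marks intestinal stem cells, fell by 0.52 (adjusted p = 0.00458). Of these factors 3 were higher and 1 lower. The count of falls was 3 without doxycycline replicate 3 and 2 without Native doxycycline replicate 1 or 2. In the list of nuclear receptors and cofactors of LRH-1 5 of 21 tested rose, NR5A2 among them, and 2 fell. RORA, an orphan receptor of the circadian clock, read 8.09, 7.99 and 7.88 with doxycycline, against 9.05, 8.99 and 9.14 without. It fell by 1.07 (SE 0.11, adjusted p = 0.000198) with no overlap. NR1H3, the oxysterol receptor LXR alpha, rose by 0.53, a call lost without doxycycline replicate 2. PPARG rose by 0.53, which was lost without doxycycline replicate 2 or untreated replicate 1 or 3. HNF4G, held in both lists, rose by 0.58 and lost its call without doxycycline replicate 1 or 2 or untreated replicate 2 or 3. Without doxycycline replicate 2, 1 member of the receptor list rose, and 3 rose without doxycycline replicate 1 or untreated replicate 2 or 3. Leaving out any of the 6 arrays of the line, or Native untreated replicate 1 or 2, gave 1 member lower.

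Liver-type plasma proteins had the lowest median of the gene lists. Caco-2 cells make a range of proteins that the liver secretes into blood, some of them known LRH-1 targets in liver. Of 35 tested of 45 on the array 14 fell and the other 21 did not pass the threshold, with a median of -0.43. Between 11 and 15 fell without each array of the line in turn, and the median ran from -0.51 to -0.22, the last without doxycycline replicate 2. TF, the iron carrier transferrin, read 5.999, 5.61 and 6.26 with doxycycline, against 7.22, 7.70 and 7.49 without. It was detected on all 3 untreated arrays and on no doxycycline array, a fall of at least 2.01-fold (adjusted p = 0.000564). HP, which binds free haemoglobin, read 6.17, 5.64 and 6.02 with doxycycline, against 6.88, 7.35 and 6.97 without. It too was detected only without doxycycline among these 6 arrays, and fell at least 1.52-fold (adjusted p = 0.00186).

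SERPINA3, an inhibitor of chymotrypsin-like proteases, fell by 0.99 (SE 0.13, adjusted p = 0.000636). F7, the clotting factor that starts coagulation, fell by 1.08 on its brightest probe (adjusted p = 0.00159), while its other detected probe changed by -0.18 (adjusted p = 0.571). FGA, the fibrinogen alpha chain, was among the brightest decile of probes and read 13.28, 12.23 and 13.56 with doxycycline, against 14.34, 14.21 and 14.19 without. Doxycycline replicate 2 was more than 1 unit below the other treated arrays, and all were below the untreated ones. FGA fell by 1.22 (SE 0.26, adjusted p = 0.0109), which missed the threshold (adjusted p = 0.058) when only the 6 arrays were used for the fit. Without doxycycline replicate 2 the fall was 0.81. HPX, the haem carrier, fell by 1.20 and TDO2, the liver's tryptophan-degrading dioxygenase, by 0.85.

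Apolipoproteins, the protein coats of lipid particles, gave 4 falls and 1 rise among 19 tested of 24 on the array. APOH, a phospholipid-binding plasma protein, read 12.76, 12.67 and 12.68 with doxycycline, against 13.86, 13.72 and 13.75 without. Both groups were tight and the fall was -1.07 (SE 0.11, adjusted p = 0.000187). APOC3, which slows clearance of triglyceride-rich particles, read 12.84, 12.07 and 13.06 with doxycycline, against 13.70, 13.66 and 13.77 without. Doxycycline replicate 2 was the lowest, and the fall was -1.05 (SE 0.20, adjusted p = 0.0062). APOM rose by 0.52, and APOD fell by 0.48, a call lost without doxycycline replicate 1 or 2 or untreated replicate 2 or 3. The number that fell was 2 without doxycycline replicate 2 or untreated replicate 3. In bile acid and sterol transport, 15 genes were tested, of which 1 rose and 1 fell. That was 6.67% each way, against 6.49% higher and 5.01% lower of all genes tested. SLC51A, a subunit of the basolateral bile acid exporter, read 9.20, 9.33 and 9.06 with doxycycline, against 8.43, 7.66 and 8.05 without, and rose by 1.15 (adjusted p = 0.00939). SLC10A1, the bile acid uptake carrier of hepatocytes, read 11.15, 10.09 and 11.70 with doxycycline, against 12.37, 12.36 and 12.25 without, and fell by 1.35 (adjusted p = 0.0151), which did not pass in the fit of the 6 arrays alone (adjusted p = 0.0661). Without doxycycline replicate 3, 2 of these transport genes were lower.

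Both detoxifying enzymes among the bright genes named were lower. GSTA2, a glutathione transferase, read 13.12, 12.65 and 13.42 with doxycycline, against 13.61, 14.05 and 13.83 without. It fell by 0.76 (adjusted p = 0.0156), a call lost without untreated replicate 2 or 3, and by 0.47 without doxycycline replicate 2. CES1, the liver carboxylesterase, read 12.89, 12.84 and 12.94 with doxycycline, against 13.61, 13.68 and 13.64 without. Within each group the arrays lay within 0.1 of each other, and the fall was -0.75 (SE 0.10, adjusted p = 0.000726). Of 28 NRF2 targets tested, genes that answer oxidative stress, 2 rose and 5 fell. GPX2, the glutathione peroxidase of the gut, rose by 1.16 (adjusted p = 0.000802), and GSTA4, GSTM3 and HMOX1 fell by 0.69, 0.68 and 1.06. HMOX1, haem oxygenase, lost its call without doxycycline replicate 1 or untreated replicate 3, and GSTM3 without doxycycline replicate 2. Falls numbered 2 without doxycycline replicate 2 or untreated replicate 3 and 3 without doxycycline replicate 1 or untreated replicate 2. A single member rose without doxycycline replicate 1 or 2, untreated replicate 1 or 3, or any of 5 arrays of the Native line.

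Lipid storage genes moved both ways, with 4 rises and 3 falls among 24 tested. G0S2, an inhibitor of the lipase that opens lipid droplets, read 6.52, 6.32 and 6.62 with doxycycline, against 8.38, 8.63 and 8.56 without. The groups were far apart, and the fall was -2.04 (SE 0.14, adjusted p = 4.82e-05). PLIN5, a droplet coat protein, read 8.98, 8.42 and 7.86 with doxycycline, against 10.34, 9.87 and 9.59 without. It fell by 1.51 (adjusted p = 0.028), but lost its call without doxycycline replicate 2 or 3 or untreated replicate 1 or 2. With replicate number as a block in the fit it did not pass either (adjusted p = 0.0508). CIDEC, which fuses droplets, rose by 0.86, MGLL, which splits monoglycerides, by 1.05, and ACSL5, which activates fatty acids in enterocytes, by 0.56. A single member fell without doxycycline replicate 2 or untreated replicate 1.

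Few nuclear genes for mitochondrial translation and respiration passed the threshold. Of 76 mitochondrial ribosome genes tested 1 passed, MRPS7, which fell by 0.38 (adjusted p = 0.0384) and was not called in 11 of 23 other settings, including those without doxycycline replicate 1 or 2 or any untreated array of the line. The median of the 76 was -0.03 and their changes ran from -0.43 to 0.33. Of 75 nuclear-encoded respiratory chain and ATP synthase genes 0 passed in limma, with 6 at an unadjusted p under 0.05 and a median of -0.03. Of 17 mitochondrial chaperones and proteases 0 passed, with 1 at an unadjusted p under 0.05. The RNA interference machinery, which the hairpin would use, gave 0 of 11 past the threshold in limma and 3 at an unadjusted p under 0.05, all 3 lower, with changes from -0.42 to 0.26. These unadjusted counts are to be read beside the 3215 of all 12566 genes tested that had an unadjusted p under 0.05.

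Amino acid handling changed through single carriers. Of 29 transporters tested 3 rose and 4 fell. SLC6A20, a proline carrier of the brush border, read 9.17, 9.39 and 8.88 with doxycycline, against 6.92, 5.73 and 7.33 without. Untreated replicate 2, where it had no detected signal, was the lowest, and no array of one group overlapped the other. It rose by 2.49 (SE 0.33, adjusted p = 0.000745), against 0.17 and 1.22 on 2 dimmer probes detected on part of the arrays. SLC43A2, a carrier of large neutral amino acids, rose by 0.95. SLC38A4 was detected on all untreated arrays and on no doxycycline array and fell at least 2.06-fold (adjusted p = 0.00228). SLC6A9, a glycine carrier, fell by 1.16 on its brightest probe, while its other probe changed by 0.30 the other way, and the mean of the probes did not pass (adjusted p = 0.0733). Of 18 cytosolic aminoacyl-tRNA synthetases, which charge tRNAs, MARS1 fell by 0.57 (adjusted p = 0.0115) and YARS1 by 0.43, and HARS1 rose by 0.45. MARS1 lost its call without untreated replicate 3, YARS1 without that array or doxycycline replicate 1, and HARS1 without any array of the line except doxycycline replicate 3. The number lower was 0 without untreated replicate 3 and 1 without doxycycline replicate 1.

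CA12, a membrane carbonic anhydrase, read 9.62, 9.74 and 9.38 with doxycycline, against 7.91, 8.01 and 7.96 without, and was the strongest of 28 glycolysis and hypoxia genes tested, of which 3 rose and 2 fell. Its rise was 1.62 (SE 0.23, adjusted p = 0.00121). The shares of the list were 10.7% higher and 7.14% lower, against 6.49% and 5.01% of all genes tested. The glycolytic enzymes PFKP and ENO2 rose by 0.61 and 0.81, PFKP losing its call without doxycycline replicate 2 or untreated replicate 1 or 3 and ENO2 without doxycycline replicate 2 or untreated replicate 3. ADM, the peptide hormone adrenomedullin, fell by 0.42 and lost its call without doxycycline replicate 1 or 2 or untreated replicate 1 or 3. A single member rose without doxycycline replicate 2 or untreated replicate 3. The count of falls was 0 without doxycycline replicate 1 or 2 or untreated replicate 1 or 3, and 1 without untreated replicate 2 or any of 3 arrays of the Native line. Of 20 genes of the unfolded protein response of the endoplasmic reticulum 3 fell: SEL1L by 0.40, SDF2L1 by 0.41 and CRELD2 by 0.54. The count was 0 without doxycycline replicate 2 or untreated replicate 3 and 1 without untreated replicate 2.

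Of 25 p53 targets and inhibitors of cyclin-dependent kinases tested 4 rose and 2 fell. CDKN1A, the inhibitor p21, rose by 0.70 (adjusted p = 0.0186), a call lost without doxycycline replicate 1 or untreated replicate 1. CDKN1C, the inhibitor p57, rose by 0.55 (adjusted p = 0.00942). GADD45G, a growth-arrest gene, read 5.52, 5.58 and 5.75 with doxycycline, against 6.497, 6.20 and 6.65 without. It was detected on 2 untreated arrays and on no doxycycline array, and lost its call without doxycycline replicate 1 or 2. SESN3, a stress-induced sestrin, fell by 0.58, lost without doxycycline replicate 1 or 2 or untreated replicate 2 or 3. The number higher was 1 without doxycycline replicate 1 or untreated replicate 1 and 2 without doxycycline replicate 2 or untreated replicate 2. Falls numbered 0 without doxycycline replicate 1 or 2 or untreated replicate 3, and 1 without untreated replicate 1 or 2 or Native untreated replicate 1. MYCN, a growth-promoting transcription factor among the brightest probes, read 12.92, 12.44 and 13.20 with doxycycline, against 13.88, 13.87 and 13.93 without. It fell by 1.04 (SE 0.16, adjusted p = 0.00188), with no overlap and doxycycline replicate 2 the lowest.

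Of 22 TGF-beta and BMP genes tested 1 rose and 2 fell. PMEPA1 rose by 1.32 on its brightest probe, a call lost without doxycycline replicate 1 or untreated replicate 2 or 3, and its other probes changed by 0.28 (adjusted p = 0.601) and 0.23 (adjusted p = 0.539). With detection required on all 12 arrays the weaker of these stood for the gene, with an adjusted p of 0.441. TGFB3 and INHBE fell by 0.64 and 0.91. TGFB3 lost its call without doxycycline replicate 1 or 2 or untreated replicate 2 or 3, and INHBE without any array of the line except doxycycline replicate 3. None of these 3 calls held without each array of the line in turn. The number lower was 4 without Native doxycycline replicate 1, and the number higher was 2 without untreated replicate 2.

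Immune-related genes were detected in part. FCER1G, the signalling chain of Fc receptors, read 10.09, 10.35 and 9.77 with doxycycline, against 7.33, 7.35 and 7.68 without. The doxycycline arrays were more than 2 units above the untreated ones, and the change was 2.62 (SE 0.18, adjusted p = 4.82e-05). SKAP1, an adaptor of T-cell receptor signalling, read 9.91, 10.64 and 9.80 with doxycycline, against 7.44, 6.94 and 7.53 without, and rose by 2.81 (SE 0.29, adjusted p = 0.000175). Both sat in a list of 15 tested leukocyte adaptors and Fc receptors, of 26 on the array. In it 4 rose, including PLCG2 (0.69) and the actin bundler LCP1 (0.52, lost without doxycycline replicate 2 or untreated replicate 2 or 3). The list's median was -0.11, or -0.01 with undetected members at their bound. The pan-leukocyte marker PTPRC was not detected on any of the 6 arrays, and the leukocyte marker CD14 fell by 0.64. CSF1R and CD79A, also leukocyte markers, were detected on all 6, with changes that did not pass (0.43, adjusted p = 0.0662, and -0.02, adjusted p = 0.978).

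Of 28 interferon-stimulated genes tested 5 rose and 1 fell. GBP2, an interferon-induced GTPase, read 8.87, 9.08 and 8.62 with doxycycline, against 6.96, 6.66 and 7.51 without. It rose by 1.81 (SE 0.22, adjusted p = 0.000461) without overlap, and GBP1 rose by 1.12. IFITM1, which restricts virus entry, was not detected on untreated arrays and rose at least 1.47-fold (adjusted p = 0.00506), and IFIT2 rose by 1.09. IFITM1 was not detected on Native untreated arrays either, so it passed the detection filter through doxycycline arrays only and could be called only as a rise. Without doxycycline replicate 3, 8 members rose. BST2, named after its value was seen, fell by 0.52, a call lost without any array of the line except doxycycline replicate 3 and without 4 arrays of the Native line.

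Of 25 ligands of NKG2D, B7 molecules and class I genes tested 2 rose and 4 fell. ULBP2 and MICA, stress-induced ligands of the killer-cell receptor NKG2D, went opposite ways: ULBP2 rose by 0.81 (adjusted p = 0.00459) and MICA fell by 0.74 (adjusted p = 0.00885). HLA-E, a non-classical class I molecule, rose by 0.58. TAP2, a peptide transporter subunit, fell by 0.48, lost without doxycycline replicate 1 or 2 or untreated replicate 1 or 3. The count of falls was 1 without doxycycline replicate 2 or untreated replicate 1 or 3, and 2 without doxycycline replicate 1 or untreated replicate 2.

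IL32, an inflammatory cytokine, read 11.93, 12.20 and 11.73 with doxycycline, against 10.49, 10.65 and 10.42 without, and rose by 1.43 (SE 0.16, adjusted p = 0.000316). Of 23 cytokine and chemokine genes tested 4 rose, IL32 among them, and 1 fell. IL6R, the interleukin-6 receptor, rose by 0.87, and CCL20, a chemokine of gut epithelium, by 0.51, a call lost without doxycycline replicate 1 or 2 or untreated replicate 1 or 2. LTB was detected on 1 doxycycline array and no untreated one and lost its call without doxycycline replicate 1 or 2 or untreated replicate 1. The number higher was 2 without doxycycline replicate 1 or 2 or untreated replicate 1. The 1 lower call was lost without doxycycline replicate 2 or untreated replicate 1 or 3.

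The remaining leading genes had varied roles. RAB27B, a GTPase of secretory vesicles, read 9.11, 9.57 and 8.67 with doxycycline, against 6.93, 6.65 and 6.79 without, and rose by 2.33 (adjusted p = 0.000108). A dimmer probe of RAB27B, detected on 1 array of each group, changed by 0.12. IGFBP4, which binds insulin-like growth factors, read 10.61, 11.36 and 10.78 with doxycycline, against 8.98, 8.63 and 8.67 without, and rose by 2.16 (adjusted p = 0.000211). In both, doxycycline replicate 2 was the highest array and the groups did not overlap. KCNF1, a potassium channel subunit, rose by 2.23 and STAMBPL1, a deubiquitinating enzyme, by 2.13. Of 43 further kept probes of called genes named by the rule, 42 changed in the same direction and 29 of these passed. Smaller changes were read on further probes of PLAUR (1.37), KLF4 (0.66), TJP1 (0.37) and, not detected, MGLL (0.45), and those of TJP1 and MGLL did not pass (adjusted p = 0.0562 and 0.0867). A further probe did not pass either for RORA (-0.72, adjusted p = 0.267), CES1 (-0.77, adjusted p = 0.175) and GSTA2 (-1.21, adjusted p = 0.0964). The same held for PKP4 (-0.68, adjusted p = 0.0635) and ACSL5 (0.91, adjusted p = 0.194). Some of the genes named were detected on only part of a group's arrays. IL6R and STAMBPL1 were detected on 1 of 3 untreated arrays, and PLAU, TIMP1, CLIC5, ALPG, MGLL and PMEPA1 on 2. BFSP1 and GABRB1 were detected on 1 of 3 doxycycline arrays, and G0S2, INHBE, MYBPH, DNAH2 and LOX on 2. SPOCD1 was not detected on untreated arrays and rose at least 2.86-fold (adjusted p = 0.000262). No untreated array of the Native line detected SPOCD1 either, so it passed the detection filter through doxycycline arrays only. It could thus be called only as a rise.

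HOXB8, a homeobox gene of posterior patterning, read 8.002, 8.55 and 7.88 with doxycycline, against 5.78, 6.23 and 6.08 without. It was detected on all 3 doxycycline arrays and on no untreated array (adjusted p = 0.000974), at least 3.28-fold higher.

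Among the genes that fell most, MYBPH, a myosin-binding protein, read 7.15, 6.19 and 7.57 with doxycycline, against 9.16, 9.23 and 9.47 without. Doxycycline replicate 2 was the lowest by about 1 unit, and the fall was -2.32 (SE 0.34, adjusted p = 0.00125). BFSP1, a filament protein of the eye lens, read 6.49, 6.28 and 7.23 with doxycycline, against 8.71, 8.50 and 8.67 without, and fell by 1.96. DNAH2, a motor chain of cilia, fell by 1.96, and PAGE4, a cancer-testis antigen, by 1.83. These 4 genes kept separate groups, though DNAH2 on doxycycline replicate 2 was more than 1 unit below the other treated arrays.

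TUBB1, a platelet beta-tubulin, read 7.08, 7.06 and 7.06 with doxycycline, against 9.12, 8.96 and 8.56 without. Its 3 doxycycline arrays were nearly equal, and the fall was -1.81 (SE 0.20, adjusted p = 0.000246). UTS2, the vasoactive peptide urotensin II, fell by 1.73, and LOX, which cross-links collagen, by 1.64. KIT, the receptor of stem cell factor, read 6.07, 6.37 and 6.17 with doxycycline, against 7.78, 7.56 and 7.85 without. On this probe it fell by 1.53 (adjusted p = 0.000138), and its other probe, which was detected on all 6 arrays, fell by 0.71 (adjusted p = 0.0222). With that probe in its place when single arrays were left out, the fall was as small as 0.71. CA8, a carbonic anhydrase relative without that activity, was detected on all untreated and no doxycycline arrays of the line. It fell at least 1.49-fold (adjusted p = 0.00139). In the Native line CA8 was detected on 1 untreated array and on no doxycycline array. It thus passed the detection filter through untreated arrays only, and could be called only as a fall. CYP4X1, an orphan cytochrome P450, read 11.06, 10.38 and 11.33 with doxycycline, against 12.57, 12.38 and 12.61 without, and fell by 1.60 (adjusted p = 0.000636). PRUNE2 fell by 1.54, GABRB1, a subunit of the GABA receptor channel, by 1.51 and SLC10A4, a relative of the bile acid carriers, by 1.46.

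**Figure D4:**
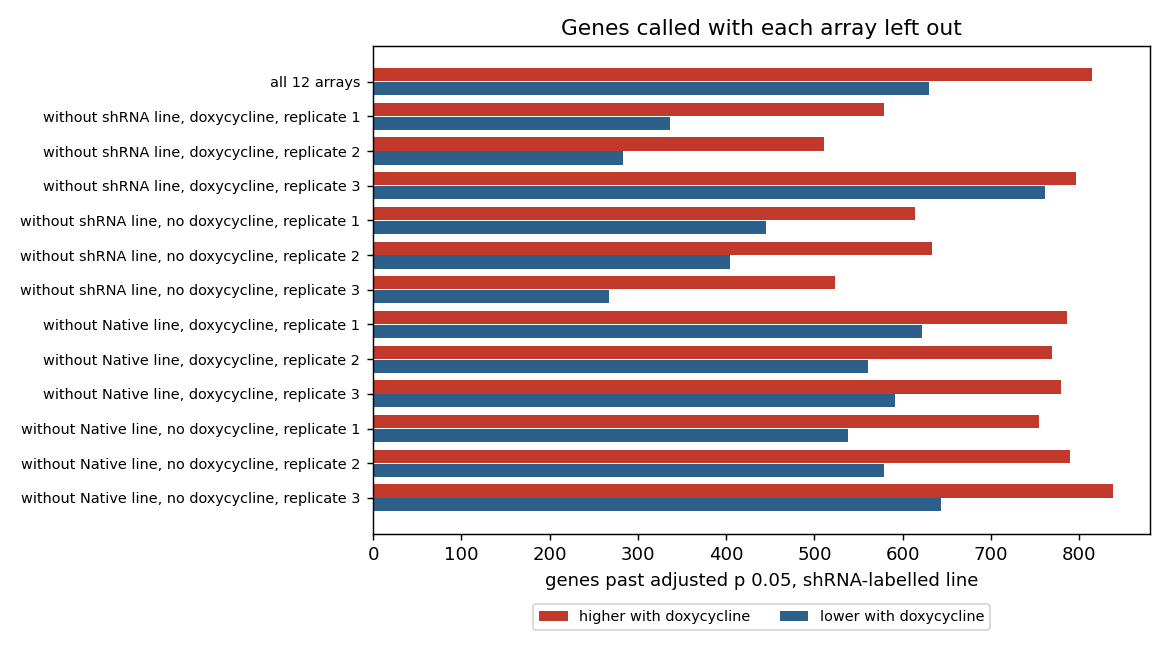
Number of genes higher and lower with doxycycline at an adjusted p under 0.05 in the shRNA-labelled line (horizontal) with all 12 arrays and with 1 array left out of the fit (rows). With all arrays 815 rose and 630 fell, and the counts are lowest without doxycycline replicate 2 (511 higher) and without untreated replicate 3 (267 lower).

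The response was then set against that of the Native line, in the same fit. In that line 990 genes rose (7.88%) and 1019 fell (8.11%). Of the genes changed in the shRNA-labelled line 46.2% were called in the same direction in the Native line, and 33.3% of the 2009 genes changed there were called in the same direction in the shRNA-labelled line. A call in 1 line and not the other does not show a difference, so the difference of the 2 responses was tested for each gene. It passed for 106 of 12566 genes (0.844%), 58 with a higher response in the shRNA-labelled line (0.462%) and 48 with a lower one (0.382%). Of the 1445 genes changed in the shRNA-labelled line, the difference passed for 60 (4.15%). The number was unsteady. It was 204 without doxycycline replicate 3 of the shRNA-labelled line, 145 without Native untreated replicate 3 and 75 without Native doxycycline replicate 2. Without any other single array it lay between 15 and 34.

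**Figure D5:**
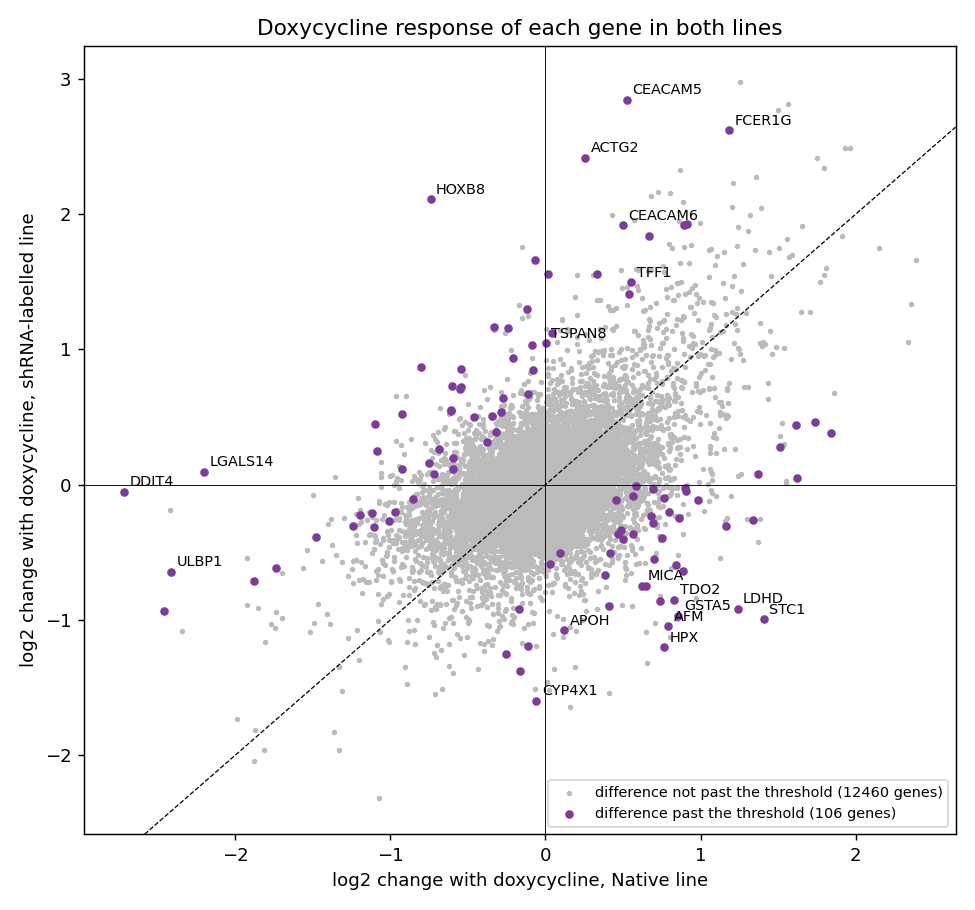
Log2 change with doxycycline in the Native line (horizontal) against that in the shRNA-labelled line (vertical), 1 point per gene tested, with genes whose difference of responses passed an adjusted p of 0.05 in colour. Points above the diagonal responded more strongly upward in the shRNA-labelled line, among them HOXB8 at a fitted 2.11 against -0.74 and CEACAM5 at 2.84 against 0.53.

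The largest positive differences among genes that rose were those of HOXB8 and CEACAM5. In the Native line HOXB8 read 5.86, 6.78 and 5.55 with doxycycline, against 6.61, 7.16 and 6.64 without. With its rise in the shRNA-labelled line, the difference of responses was 2.85 (95% interval 1.95 to 3.75, adjusted p = 0.0151). CEACAM5 read 10.87, 11.13 and 10.86 with doxycycline in the Native line, against 10.79, 10.47 and 10.01 without. It changed by 0.53 there (adjusted p = 0.175), and the difference was 2.32 (95% interval 1.56 to 3.08, adjusted p = 0.0178). For ACTG2 the difference was 2.16 (adjusted p = 0.0446), for FCER1G 1.44 (adjusted p = 0.0403) and for CEACAM6 1.42 (adjusted p = 0.0316). TSPAN8, which changed by 0.00 in the Native line, gave 1.04 (adjusted p = 0.0106), and TFF1 gave 0.94 (adjusted p = 0.0412). Means without doxycycline, shRNA-labelled line against Native line, were 7.89 against 10.42 for CEACAM5 and 12.55 against 13.57 for CEACAM6. For TSPAN8 they were 13.18 against 14.62, so each was lower untreated in the shRNA-labelled line. With doxycycline the means were 10.74 against 10.95, 14.47 against 14.07 and 14.22 against 14.63. HOXB8 and FCER1G were higher in the shRNA-labelled line with doxycycline (8.14 against 6.07 and 10.07 against 9.14). FCER1G and TFF1 rose in both lines, so their difference is one of size. HOXB8 and ACTG2 had no detected signal on the untreated arrays of the shRNA-labelled line, so their differences are fitted values and not bounds. In the Native line HOXB8 was detected on 1 doxycycline array and 3 untreated ones, and ACTG2 on 1 and 0. The HOXB8 difference lost its call without untreated replicate 1 of the shRNA-labelled line, and that of CEACAM5 without Native doxycycline replicate 3 or Native untreated replicate 2. For TSPAN8 it held without each single array and was lost with median scaling (adjusted p = 0.0845). With median scaling that of TFF1 was lost too (adjusted p = 0.0783). With no detection filter FCER1G, ACTG2 and TFF1 lost theirs (adjusted p = 0.0525, 0.0599 and 0.0594). The call for CEACAM6 was lost without any of 7 single arrays, that for FCER1G or ACTG2 without any of 9, and that for TFF1 without any of 10, doxycycline replicates 1 and 2 of the shRNA-labelled line and Native doxycycline replicates 1 and 3 among them each time.

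Other large positive differences came from genes that fell in the Native line and did not pass in the shRNA-labelled line. DDIT4, a stress-induced inhibitor of mTOR signalling, read 12.47, 12.38 and 12.57 with doxycycline, against 12.70, 12.24 and 12.63 without doxycycline in the shRNA-labelled line. In the Native line it read 10.43, 10.56 and 10.27 with doxycycline, against 13.04, 13.28 and 13.08 without. DDIT4 changed by -0.05, against -2.72 in the Native line, and the difference of 2.66 passed with an adjusted p of 0.000159. LGALS14, a galectin of placenta, gave 2.29 (adjusted p = 0.0316) and ULBP1, a ligand of NKG2D, 1.77 (adjusted p = 0.0446). The DDIT4 difference passed in all 22 settings where it was tested, while those of LGALS14 and ULBP1 were lost without any array of the shRNA-labelled line except doxycycline replicate 3, and without Native doxycycline replicate 1 or 3. That of ULBP1 was lost too without Native untreated replicate 1 or 2 and with no detection filter (adjusted p = 0.0599). With replicate number as a block in the fit the ULBP1 difference did not pass either (adjusted p = 0.0696).

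Among liver-type genes several responses were lower in the shRNA-labelled line than in the Native line. APOH changed by -1.07, against 0.12 in the Native line, a difference of -1.20 (adjusted p = 0.0106). HPX gave -1.96 (adjusted p = 0.0403) and AFM, a vitamin E-binding plasma protein that was not detected on the doxycycline arrays of the shRNA-labelled line, -1.84 (adjusted p = 0.0316). TDO2 fell by 0.85 here and rose by 0.83 in the Native line, a difference of -1.68 (adjusted p = 0.00698). GSTA5, a glutathione transferase, went opposite ways too, by -0.97, against 0.86 in the Native line, with a difference of -1.82 (adjusted p = 0.00698). Of the 35 liver-type genes 14 fell in the shRNA-labelled line, against 3 lower and 4 higher in the Native line, and the difference passed for 3 of the 35. The differences for APOH, TDO2 and GSTA5 passed in all 22 settings where they were tested. Those for HPX and AFM were lost without any array of the shRNA-labelled line except doxycycline replicate 3, and without Native doxycycline replicate 1 or 3 or Native untreated replicate 2. HPX also lost it without Native untreated replicate 1 and with no detection filter (adjusted p = 0.0525), and AFM without Native doxycycline replicate 2.

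For most leading genes the difference did not pass. ANXA1 rose by 1.26 in the Native line, and the difference of 1.72 had a 95% interval of 0.71 to 2.73 and an adjusted p of 0.106. PLAUR rose by 1.79 there, with a difference of 0.55 (95% interval -0.13 to 1.22, adjusted p = 0.42). MMP10 differed by 1.27 (95% interval 0.25 to 2.29, adjusted p = 0.21). For G0S2 the difference was -0.16 (95% interval -0.59 to 0.27, adjusted p = 0.746) and for KIT -0.22 (95% interval -0.68 to 0.25, adjusted p = 0.669). NR5A2 rose by 0.89 in the Native line, and its difference of -0.39 did not pass either (95% interval -0.71 to -0.06, adjusted p = 0.231). A difference that did not pass does not show that both lines responded alike.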

How the data were processed

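Caco-2 RNA was hybridised to Illumina bead arrays, 3 per group in 4 groups, per the labels' protocols. The deposited table gives the mean bead intensity of 47314 probes on each array on a linear scale, not normalised, per the file headers. Beside each intensity the deposited table holds a detection p-value, per the file headers. A deposited value table holds log2-like values that the authors brought to 1 distribution, as read from the values, and served as an alternative. Per the submitters' processing notes, GenomeStudio and lumi were used, with no version or role stated.

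From the intensities, background was corrected in limma 3.58.1 (R 4.3.3) with the normal-exponential model on detection p-values and an offset of 16, followed by log2 and quantile normalisation. Probes detected at p under 0.05 on at least 3 of 12 arrays were kept (22417). Of all probes 30109 had 1 gene symbol, 8 several and 17197 none in the platform annotation. The brightest kept probe stood for each of 12566 genes. A limma model over all 4 groups gave each contrast, with Benjamini-Hochberg adjustment over all genes, and 95% intervals are of the log2 change, with no adjustment. On simulated data for the shRNA-labelled contrast (12566 genes), 32.8% of changes of 0.5, 76.1% of 1 and all of 2 log2 units were recovered, with 9 false calls. The number of arrays limits the precision.

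The genes named were NR5A2, the 16 largest changes each way among non-overlapping genes past the threshold, the 6 largest each way in the brightest decile, the 6 largest differences of responses each way, and up to 4 members per gene list by smallest adjusted p. Open-reading-frame, antisense and pseudogene symbols were passed over in the largest changes. The lists and members were chosen with earlier results of these data known. A gene named outside this rule was named after its value was seen. No 2 arrays were identical, and all carried the same number before a letter in the labels, read here as 1 chip. Alternatives covered background, scaling, filters, probe choice, the deposited values, weights, variance, a replicate block and each array left out.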

Additional observations from a re-analysis of the deposited data

Results flagged for a closer look

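The 19 results here are those in which the test of the difference of responses, shRNA-labelled line minus Native line, passed an adjusted p of 0.05 (limma). They are given as log2 differences, and their causes were not tested.

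Positive differences, a higher response in the shRNA-labelled line, were 2.85 for HOXB8, 2.66 for DDIT4, 2.32 for CEACAM5, 2.29 for LGALS14, 2.16 for ACTG2, 1.77 for ULBP1, 1.44 for FCER1G, 1.42 for CEACAM6, 1.04 for TSPAN8 and 0.94 for TFF1. Of these 10, DDIT4, LGALS14 and ULBP1 did not pass within the shRNA-labelled line itself.

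Negative differences were -1.20 for APOH, -1.37 for MICA, -1.54 for CYP4X1, -1.68 for TDO2, -1.82 for GSTA5, -1.84 for AFM, -1.96 for HPX, -2.15 for LDHD, a mitochondrial lactate dehydrogenase, and -2.40 for STC1, a secreted glycoprotein hormone. STC1 changed by -0.99 in the shRNA-labelled line (adjusted p = 0.0798) and 1.41 in the Native line (adjusted p = 0.015). LDHD changed by -0.92 (adjusted p = 0.0791) in the shRNA-labelled line and 1.24 (adjusted p = 0.0184) in the Native line. These calls for STC1 and LDHD were lost without any single array except doxycycline replicate 3 of the shRNA-labelled line. With no detection filter both were lost too (adjusted p = 0.0609 and 0.065). With replicate number as a block in the fit, that for LDHD did not pass (adjusted p = 0.0711). The CYP4X1 call was lost without any of 8 single arrays, untreated replicates 1, 2 and 3 of the shRNA-labelled line among them. The same call was lost with no detection filter (adjusted p = 0.0584) and with the mean of all kept probes (adjusted p = 0.077). The call for MICA was lost without doxycycline replicate 1 or untreated replicate 3 of the shRNA-labelled line, or Native doxycycline replicate 3 or Native untreated replicate 2.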

How the results depend on the processing

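No named change that passed the threshold turned its direction in any of 23 alternatives, while that of DDIT4, which did not pass, ran from -0.19 to 0.04 when single arrays were left out, and NR5A2 stayed past the threshold in each (adjusted p 0.00355 to 0.0399). Of all named-gene comparisons with an alternative, 3053 stayed on the same side of the threshold, 127 no longer passed and 6 newly passed.

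The number of genes higher with doxycycline in the shRNA-labelled line was 815 and became 1288 with array weights, with 511 to 839 when single arrays were left out. The number lower was 630, and became 361 in a fit of the 6 arrays alone and 1410 with array weights, with 267 to 761 when single arrays were left out. In the fit of the 6 arrays alone the calls of ADM, ALPG, ANXA9, APOD, CCL20, CDKN1A, FGA, GSTA2, GSTM3, HARS1, INHBE, LCP1, MRPS7, NR1H3, PKP4, PPARG, SDF2L1, SEL1L, SESN3, SLC10A1, TAP2 and YARS1 did not pass (adjusted p 0.0507 to 0.108). Leaving out untreated replicate 3 gave the largest share of rises among calls, 66.2%, against 56.4% with all arrays.

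The number of genes whose responses differed was the least steady. It was 106, and became 318 without background correction, 168 with an offset of 50, 162 with detection on all 12 arrays, 43 with no detection filter, 527 with array weights and 299 with a trended robust variance. With single arrays left out it ran from 15 to 204.

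Same-numbered arrays of the shRNA-labelled line did not all deviate together (correlations of 0.10, -0.19 and 0.07). Those of the Native line gave 0.14, 0.07 and 0.23. Differently numbered pairs ran from -0.33 to 0.25 in the shRNA-labelled line and from -0.18 to 0.09 in the Native line. Whether the numbers paired the samples is thus not known, and the main fit used no pairing. A replicate block gave 777 higher, 568 lower and 84 differences. With the block the changes of PLIN5 (adjusted p = 0.0508) and MRPS7 (adjusted p = 0.0508) and the differences of ULBP1 (adjusted p = 0.0696) and LDHD (adjusted p = 0.0711) did not pass. The causes were not tested. No depth applies to arrays. Genes near background have only lower bounds.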
